A study of Drosophila melanogaster with 40 samples.

Results

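The 9 pair-rule genes eve, h, run, ftz, odd, prd, slp1, slp2 and opa were examined for chromatin binding in early Drosophila embryos. They are 9 of 13968 protein-coding genes and of 18277 annotated genes. All were found in the annotation, h under the symbol hry. Every peak that touched the gene body or 10 kb to either side of it was taken for each gene. These windows span 209.6 kb in 8 blocks, because those of the neighbours slp1 and slp2 overlap, and a peak between those genes counts for both. Of 80548 peaks in 14 lists, 461 lay in the windows.

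Proteins were mapped by chromatin immunoprecipitation and sequencing (ChIP-seq) in 0.5 to 1.5 h embryos. GAF and Zelda (ZLD in the labels) were mapped in M-Z+ dPCIF1 mutant embryos, which lack maternal dPCIF1, and in wild-type embryos (w1118 in the methods). dPCIF1, HIRA and RNA Pol II-Ser5P were mapped in wild-type embryos only. Each of the 7 groups had 2 replicates. The methods describe CRISPR null alleles and a deficiency of dPCIF1, and which combination gave the embryos used for ChIP-seq is not given in the sources used here. The methods call the replicates biological and give an amount of embryos for each. They do not state whether these came from separate collections, so what the spread between replicates includes is not fully known. Whole embryos were used, and fewer bound nuclei cannot be told apart from weaker binding in each nucleus.

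Pair-rule genes encode transcription factors that divide the early embryo into segments. Most are expressed in stripes, and many stripes are driven by separate enhancers spread over the flanking DNA. Zelda, a zinc finger protein that recognises CAGGTA-type sites, and GAF, which binds GAGA repeats, are pioneer factors that bind closed chromatin before zygotic transcription begins. HIRA is a chaperone that deposits the histone variant H3.3. dPCIF1 is the fly homologue of the mammalian cap methyltransferase PCIF1, and RNA Pol II-Ser5P is polymerase phosphorylated as it starts transcription.

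Each list gives the start and end of the called peaks and no height, so a value here is the number of peaks or the bases they cover, and the depth behind it is unknown. The lists held between 3547 and 11661 peaks and covered between 1.56% and 10.6% of the chromosome arms. To count as a region of a group, a peak of each replicate had to share at least 20% of its length with the other, and the region spans both peaks, so it can be wider than either. Within the windows, the promoter part lies within 1 kb of a start site of the 9 genes and holds 20655 bp. The distal part lies beyond 1 kb of every annotated start site and holds 157993 bp. The other 30941 bp lie in promoters of other genes. Stripe enhancers are not marked in the annotation used here, so distal regions are given by distance from the gene's 5′ end, with negative values upstream.

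**Figure D1:**
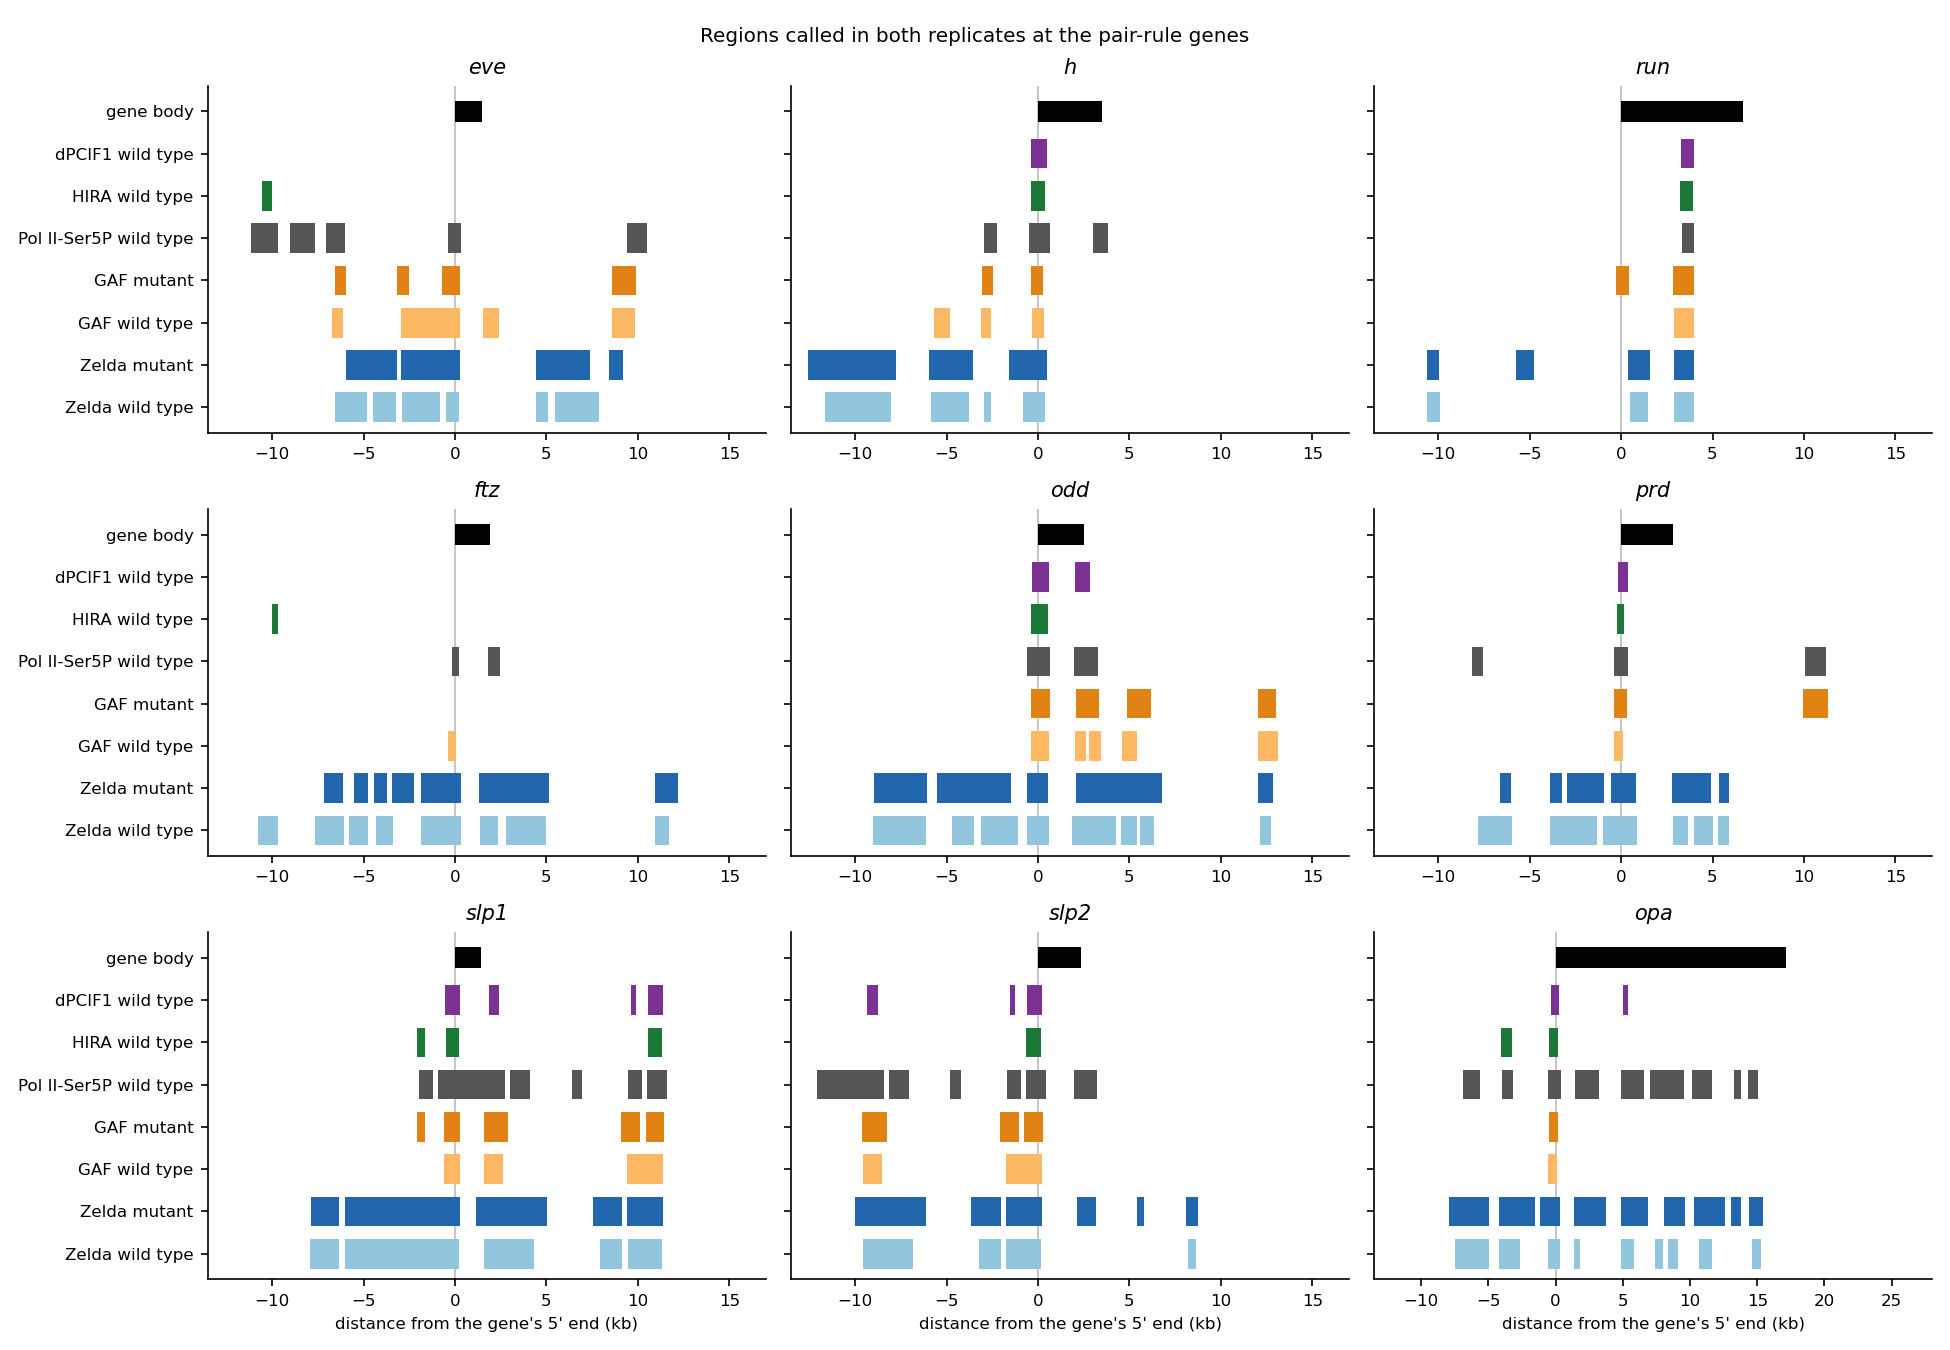
Regions called in both replicates at the 9 genes, 1 panel each, as bars along the distance from the gene's 5′ end (kb), with the gene body in black and 1 row per group. 7 of 11 dPCIF1 regions and 7 of 11 HIRA regions lie at promoters of the 9 genes, while Zelda has 46 regions in the mutant, 11 of them there, and 50 in wild type, 11 of them there.

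The promoters were compared first. RNA Pol II-Ser5P had a region at the promoters of all 9 genes, against 53.3% of all protein-coding genes. dPCIF1 had one at 7 of 9, against 18.7%, and HIRA also at 7 of 9, against 13.8%. The same genes, eve and ftz, lacked a region of either protein at the promoter. At the promoters of these 9 genes, all 7 dPCIF1 regions overlapped a HIRA region and all 7 overlapped RNA Pol II-Ser5P by the 20% rule. Of all dPCIF1 regions in the windows, 7 of 11 overlapped HIRA, against 57.9% of dPCIF1 regions of every class over the genome. For RNA Pol II-Ser5P the genome share was 66.0% by the 20% rule and 94.3% where an overlap of 1 bp was enough.

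At the start site of odd, which encodes a zinc finger repressor, dPCIF1 covered 928 and 791 bp of the promoter, HIRA 924 and 876 bp and RNA Pol II-Ser5P 1176 and 1187 bp in replicates 1 and 2. These were the widest promoter values of dPCIF1 and HIRA among the 9 genes. prd, a paired-domain and homeodomain factor, had the narrowest called ones, with 519 and 467 bp for dPCIF1 and 333 and 358 bp for HIRA. At ftz, a homeodomain factor, no base of the promoter was covered by dPCIF1 or HIRA in any list, while RNA Pol II-Ser5P covered 325 and 390 bp. The homeodomain repressor eve had no dPCIF1 base at its promoter either, and HIRA covered 553 bp in replicate 1 and 0 bp in replicate 2. RNA Pol II-Ser5P covered 697 and 641 bp there.

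**Figure D2:**
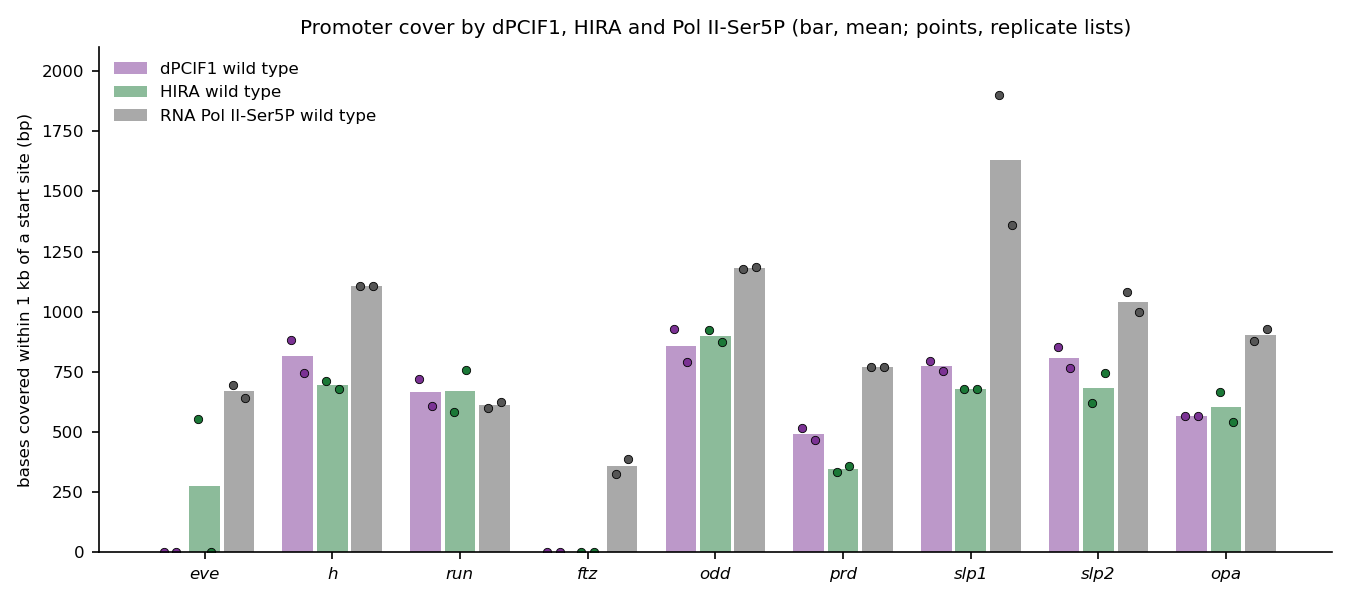
Bases covered within 1 kb of a start site (bp) at each gene by dPCIF1, HIRA and RNA Pol II-Ser5P in wild-type embryos, with bars for the mean and points for the 2 replicate lists. dPCIF1 is at 0 bp at eve and ftz in both lists, and RNA Pol II-Ser5P is above 0 bp at all 9 genes.

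Pioneer factors were present at nearly all of these promoters. GAF had a promoter region at 8 of 9 genes in the mutant, against 20.8% of all protein-coding genes, and at 9 of 9 in wild type, against 22.9%. The gene without one in the mutant was ftz. Zelda had a promoter region at 9 of 9 in the mutant, against 9.81%, and at 9 of 9 in wild type, against 8.76%. In the whole windows, dPCIF1 had a region at 7 of 9 genes, against 45.5% of all protein-coding genes. HIRA had one at 9 of 9, against 36.6%, and RNA Pol II-Ser5P at 9 of 9, against 76.1%. The windows of 8 genes held a GAF region in the mutant, against 53.3%, and those of all 9 in wild type, against 56.4%. Zelda regions lay in all 9 windows in the mutant, against 31.2%, and in all 9 in wild type, against 28.6%.

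Proteins differed in how far their peaks reached beyond the promoters. On average 25.3% ± 0.504 of the bases covered by dPCIF1 in the windows were distal, and 28.4% ± 4.19 for HIRA, against 61.1% ± 0.171 for RNA Pol II-Ser5P (SD, n = 2 each). The distal share was 44.8% ± 3.53 for GAF in the mutant and 47.3% ± 1.74 in wild type (SD, n = 2 each). For Zelda it was 76.4% ± 0.573 in the mutant and 71.4% ± 0.280 in wild type (SD, n = 2 each). The distal part makes up 75.4% of the windows.

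Zelda stood apart in the share of sequence it covered. Its peaks covered 40.3 and 37.3% of the distal part in the mutant lists and 31.0 and 27.5% in the wild-type lists. Over the chromosome arms it covered 2.67 and 2.52% in the mutant and 2.34 and 1.96% in wild type. GAF covered 5.71 and 4.06% of the distal part in the mutant and 5.58 and 4.78% in wild type, close to its cover of the arms, which was 5.51 and 4.73% in the mutant and 5.31 and 5.37% in wild type. dPCIF1 covered 1.31 and 0.988% of the distal part, against 2.04 and 1.64% of the arms. HIRA covered 1.79 and 1.01% of it, against 2.04 and 1.56% of the arms. At the promoters of the 9 genes, by contrast, each protein covered a larger share than in the arms, from 22.4% in a HIRA list to 57.7% in a Zelda mutant list. The arms mix promoters and distal sequence of all genes. Cover of all promoters, or of all distal sequence, was not measured, so whether these contrasts are particular to the 9 genes was not tested.

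**Figure D3:**
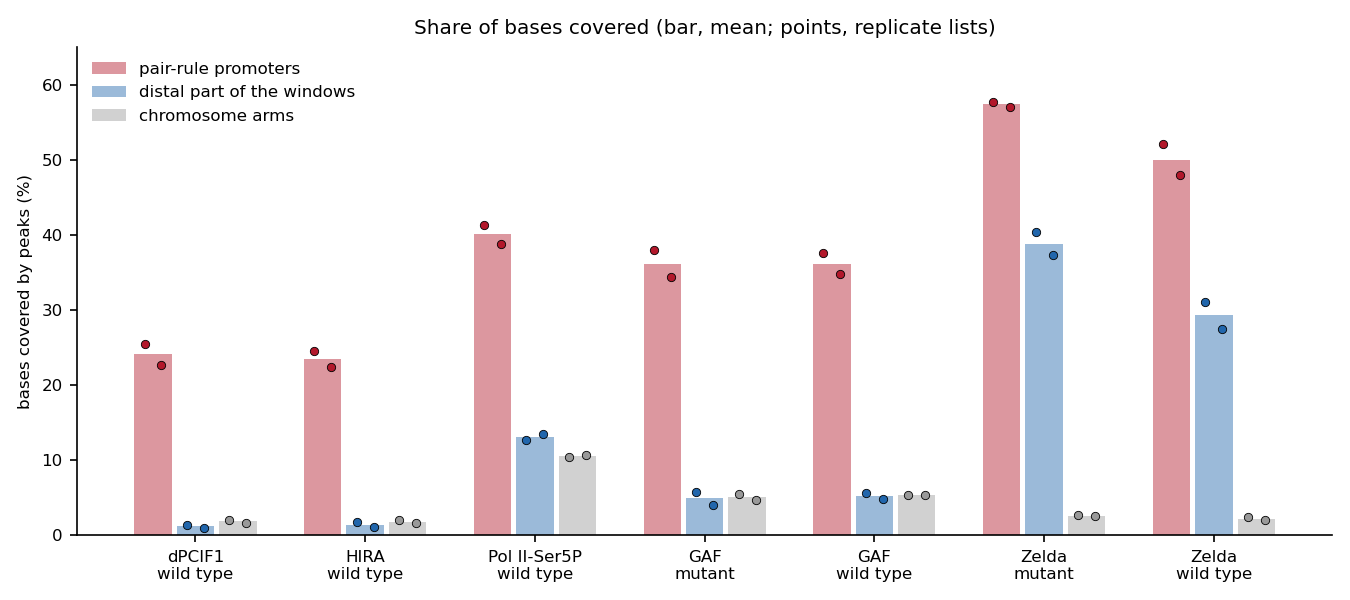
Share of bases covered by peaks (%) in the pair-rule promoters, in the distal part of the windows and over the chromosome arms, with bars for the mean and points for the 2 replicate lists of each group. Zelda covers 38.8% of the distal part on average in the mutant and 29.2% in wild type, while GAF, dPCIF1 and HIRA cover between 1.15% and 5.18% of it.

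Zelda peaks here were wide as well as frequent. Their median width in the windows was 1185 and 1075 bp in the mutant lists and 929 and 889.5 bp in the wild-type lists, against 559 and 565 bp in the mutant and 489 and 520 bp in wild type over whole lists. When protein-coding genes were ordered by the share of their window covered by Zelda in wild type, 9 genes lay above slp1 and 22 above odd. For run, which encodes the Runt domain factor, 1118 genes lay above it, the most among the pair-rule genes. The median cover of the 9 windows was 41.3% in the mutant and 33.9% in wild type, with ranges of 12.1 to 66.8% and 7.44 to 58.4%.

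Other segmentation genes were counted as lists. The median Zelda cover in the mutant was 41.3% for the 9 pair-rule genes, 32.0% for 6 gap genes and 20.6% for 8 segment polarity genes. In wild type it was 33.9% for pair-rule, 23.0% for gap and 13.4% for segment polarity genes, and the median over all protein-coding genes was 0% in both genotypes. For dPCIF1 the order was different, with a median of 3.03% for pair-rule genes, 5.28% for gap genes and 4.07% for segment polarity genes. All 6 gap genes and all 8 segment polarity genes had a dPCIF1 region at the promoter, against 7 of 9 pair-rule genes. No test was made between these lists, whose members were chosen and are not replicates.

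The flanks of h, a basic helix-loop-helix repressor, held its widest Zelda region far upstream. That region ran from -12598 to -7767 bp in the mutant (chr3L:8663161-8667992) and from -11641 to -8028 bp in wild type (chr3L:8664118-8667731), with its midpoint between genes. Over it Zelda covered 4440 and 4474 bp in the mutant and 2981 and 3216 bp in wild type. A narrower one lay between -5947 and -3540 bp in all 4 Zelda lists. At the promoter, dPCIF1 had a region of 883 bp, HIRA of 736 bp and RNA Pol II-Ser5P of 1138 bp, all over the 5′ end. GAF had a promoter region of 655 bp in the mutant and 696 bp in wild type. RNA Pol II-Ser5P also had a region of 776 bp at the 3′ end of the gene (chr3L:8678785-8679560).

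At run, binding centred on the inner of its start sites. The annotation gives a second start site 3769 bp downstream of the first, and all 14 lists had a peak over it. Over the first start site, dPCIF1, HIRA, RNA Pol II-Ser5P and Zelda had no peak in any list. GAF had one there in both mutant lists and in wild-type replicate 1. The dPCIF1 region at the inner site was 722 bp wide (chrX:20693948-20694669), that of HIRA 760 bp and that of RNA Pol II-Ser5P 627 bp. Zelda also had a region in the intron, from 398 to 1583 bp in the mutant and from 479 to 1448 bp in wild type. A distal one ran from -10591 to -9955 bp in the mutant and from -10591 to -9883 bp in wild type.

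Zelda gained a region at run in the mutant. It lay between -5723 and -4747 bp (chrX:20684947-20685923), between genes, with its midpoint 1384 bp from the start site of lncRNA:CR43862. The mutant lists covered 961 and 864 bp of it and both wild-type lists 0 bp. No other protein had a region there. The middle 201 bp of it are shown, since they hold neither motif searched, CAGGTA for Zelda and GAGAG for GAF, each on both strands.
run, gained Zelda region, chrX:20685335-20685535: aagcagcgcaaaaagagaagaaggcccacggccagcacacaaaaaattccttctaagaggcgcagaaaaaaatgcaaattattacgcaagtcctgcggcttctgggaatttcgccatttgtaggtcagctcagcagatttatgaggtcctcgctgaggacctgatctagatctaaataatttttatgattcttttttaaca

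The ftz gene, which lies among the homeotic genes of the Antennapedia complex, had wide Zelda cover but few regions of any other protein. Its widest distal Zelda region ran from 1304 to 5168 bp in the mutant (chr3R:6865628-6869492), beginning inside the gene. In wild type the widest ran from 2813 to 4990 bp, downstream of the gene, and another, from 1377 to 2361 bp, began inside the gene. Between 1304 and 5168 bp Zelda covered 3397 and 3838 bp in the mutant lists and 3112 and 2135 bp in the wild-type lists. The promoter region of Zelda reached from -1854 to 322 bp in the mutant and from -1844 to 335 bp in wild type. RNA Pol II-Ser5P had 2 regions, of 390 bp at the promoter and of 689 bp that began inside the gene and reached downstream of it. HIRA had 1, of 325 bp at -9996 bp, nearer to the start site of Scr. dPCIF1 had no peak in the window.

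The only GAF region lost in the mutant at these genes was the ftz promoter. It spanned -391 to 67 bp (chr3R:6863933-6864391). GAF covered 0 bp of it in both mutant lists, against 459 and 427 bp in the wild-type lists. RNA Pol II-Ser5P had a region there, and Zelda had one in both genotypes. The middle 201 bp are shown because they hold 1 CAGGTA site and 1 GAGAG site, the second as CTCTC on this strand, in capitals. Below them is the stretch with the most CAGGTA sites in a distal Zelda region of ftz, from wild type, read on the strand of the gene.
ftz, lost GAF region, chr3R:6864062-6864262: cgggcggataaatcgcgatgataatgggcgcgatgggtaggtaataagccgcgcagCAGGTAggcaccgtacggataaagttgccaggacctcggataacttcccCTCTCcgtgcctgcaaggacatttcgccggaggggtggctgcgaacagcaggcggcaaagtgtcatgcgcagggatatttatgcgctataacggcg
ftz, distal Zelda region, chr3R:6875574-6875723: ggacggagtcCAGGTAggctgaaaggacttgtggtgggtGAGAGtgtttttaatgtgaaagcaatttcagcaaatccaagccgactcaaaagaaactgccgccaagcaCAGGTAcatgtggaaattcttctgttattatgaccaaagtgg

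odd was covered by Zelda on both sides. One stretch, between 1863 and 6764 bp from its 5′ end, began inside the gene and reached downstream of it. There the mutant lists had 2 and 1 peaks that covered 4182 and 4504 bp, and the wild-type lists 3 and 4 peaks that covered 3546 and 2653 bp. Upstream, between -5514 and -1107 bp, 1 peak in each mutant list covered 4023 and 3984 bp, and 2 peaks in each wild-type list covered 2746 and 3063 bp. dPCIF1 had a distal region of 838 bp at the 3′ end of the gene (chr2L:3603902-3604739), where RNA Pol II-Ser5P, GAF and Zelda also had regions and HIRA had none. The 250 bp before the odd start site are shown on the coding strand as an example of a promoter bound by all 5 proteins. A GAGAG site and a CAGGTA site, in capitals, stand close together in it.
odd, promoter, chr2L:3606757-3607006: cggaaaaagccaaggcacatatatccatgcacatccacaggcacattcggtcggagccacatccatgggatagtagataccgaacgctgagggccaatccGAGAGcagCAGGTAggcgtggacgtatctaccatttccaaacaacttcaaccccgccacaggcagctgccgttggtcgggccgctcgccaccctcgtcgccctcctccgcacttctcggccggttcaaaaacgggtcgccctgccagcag

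The forkhead genes slp1 and slp2 share a window that held the widest Zelda regions. One of 6282 bp in the mutant (chr2L:3819667-3825948) and 6227 bp in wild type (chr2L:3819668-3825894) reached from -6008 bp in the mutant and -6007 bp in wild type to the slp1 start site. Single lists broke it up, with 2 and 1 peaks over 5966 and 6223 bp in the mutant and 1 and 4 peaks over 6227 and 4941 bp in wild type. Another, of 3903 bp in the mutant and 2766 bp in wild type, began 1130 bp from the slp1 5′ end in the mutant, inside the gene, and 1571 bp from it in wild type, downstream of the gene. At the slp1 promoter dPCIF1 had a region of 795 bp and HIRA of 699 bp. At slp2 these were 852 and 771 bp. RNA Pol II-Ser5P covered the whole of slp1 with a peak of 3626 bp in replicate 1 (chr2L:3824774-3828399), while the promoter peak of replicate 2 was 1362 bp wide. HIRA had a distal region of 487 bp at -2102 bp of slp1.

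The gap between slp1 and slp2 held a site bound away from any promoter. dPCIF1 had a region of 583 bp there (chr2L:3827511-3828093), 1836 to 2418 bp from the slp1 5′ end. RNA Pol II-Ser5P, GAF and Zelda had regions over it and HIRA had none. The RNA Pol II-Ser5P region reached it through the replicate 1 peak of 3626 bp. The replicate 2 promoter peak, of 1362 bp, lay wholly within 1 kb of the slp1 start site. In the slp2 window HIRA covered 1048 and 279 distal bp in replicates 1 and 2, without a distal region called in both. GAF covered 1109 and 1337 bp in the mutant and 1049 and 860 bp in wild type. A stretch within the Zelda region is shown with 1 CAGGTA site and 3 overlapping GAGAG sites, as CTCTC on this strand, in capitals. The GAF region gained in the mutant lay on the other side of slp1, between -2076 and -1616 bp (chr2L:3823599-3824059), with 300 and 461 bp covered in the mutant lists and 0 bp in both wild-type lists. HIRA and RNA Pol II-Ser5P had regions there in wild type, and Zelda in both genotypes. Zelda gained a region of 393 bp downstream of slp2 (chr2L:3842262-3842654), with 298 and 367 bp in the mutant lists and 0 bp in both wild-type lists. The middle of each gained region is shown, and neither holds a CAGGTA or a GAGAG site.
slp1 and slp2, region of dPCIF1, RNA Pol II-Ser5P, GAF and Zelda, chr2L:3827555-3827704: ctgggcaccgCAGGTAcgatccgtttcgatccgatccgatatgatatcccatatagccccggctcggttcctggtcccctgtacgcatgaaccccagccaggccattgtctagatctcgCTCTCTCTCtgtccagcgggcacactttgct
slp1, gained GAF region, chr2L:3823729-3823929: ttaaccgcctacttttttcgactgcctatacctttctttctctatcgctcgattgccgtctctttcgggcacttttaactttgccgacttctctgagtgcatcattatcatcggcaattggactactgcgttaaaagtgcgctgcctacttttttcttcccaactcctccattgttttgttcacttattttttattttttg
slp2, gained Zelda region, chr2L:3842358-3842558: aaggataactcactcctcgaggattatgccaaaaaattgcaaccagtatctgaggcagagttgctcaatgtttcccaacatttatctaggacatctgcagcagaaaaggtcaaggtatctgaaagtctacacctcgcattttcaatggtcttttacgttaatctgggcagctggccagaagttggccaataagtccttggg

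opa encodes a zinc finger factor of the ZIC family. Its gene body is the longest of the 9, and its window held 9 Zelda regions in each genotype, 8 of them distal. The widest was upstream, from -7951 to -4934 bp in the mutant (chr3R:4844862-4847879) and from -7527 to -4962 bp in wild type. RNA Pol II-Ser5P also had 8 distal regions, 6 of them in introns, the widest of 2531 bp (chr3R:4859850-4862380). dPCIF1 had 1 distal region, of 391 bp in an intron, and HIRA had 1, of 799 bp upstream. At the promoter, GAF covered 641 and 589 bp in the mutant and 626 and 640 bp in wild type, and all the other proteins had a region too. Several Zelda regions in its introns were wider in the mutant. Between 1385 and 3916 bp Zelda covered 2323 and 2225 bp in the mutant and 381 and 1748 bp in wild type, and between 4876 and 6846 bp it covered 1959 and 1412 bp in the mutant and 898 and 951 bp in wild type. The 250 bp before the start site are shown because they hold no GAGAG or CAGGTA site, while every GAF list had a peak over the start site.
opa, promoter, chr3R:4852563-4852812: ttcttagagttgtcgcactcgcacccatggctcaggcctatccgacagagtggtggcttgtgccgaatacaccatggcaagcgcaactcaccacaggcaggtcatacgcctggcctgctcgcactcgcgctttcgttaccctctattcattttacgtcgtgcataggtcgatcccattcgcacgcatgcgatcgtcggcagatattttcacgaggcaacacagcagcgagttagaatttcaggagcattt

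prd had 6 Zelda regions in each genotype. The region over the start site ran from -572 to 807 bp in the mutant and from -1006 to 877 bp in wild type. The wild-type peak there was 1884 bp wide in replicate 1 and 1066 bp in replicate 2. The widest promoter region in the mutant, of 1973 bp, ran from -2934 to -962 bp. Between -4016 and 877 bp the genotypes overlapped, with 3666 and 3690 bp covered in the mutant and 4160 and 3270 bp in wild type. The window holds 8 other annotated genes. Near one of them, Pex19, between -7976 and -5979 bp, Zelda covered 591 and 519 bp in the mutant and 1858 and 1555 bp in wild type, so both mutant lists were lower there. dPCIF1 and HIRA had only their promoter regions, of 542 and 358 bp. GAF had a promoter region of 683 bp in the mutant and 469 bp in wild type.

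For eve, the Zelda and GAF cover reached far upstream, where several of its stripe enhancers are known to lie. In the mutant a Zelda region ran from -2940 to 272 bp (chr2R:9976379-9979591), and in wild type it was split into a region from -2889 to -837 bp and a shorter one at the promoter. Downstream, the widest distal Zelda region ran from 4443 to 7372 bp in the mutant and from 5485 to 7858 bp in wild type, where another ran from 4413 to 5085 bp. From -3178 to 287 bp GAF covered 1664 and 1322 bp in 2 peaks of each mutant list, against 3243 bp in 1 peak and 2450 bp in 3 peaks in wild type. Between 1513 and 2407 bp GAF covered 371 and 0 bp in the mutant and 589 and 895 bp in wild type. RNA Pol II-Ser5P had 5 regions in the window, 1 at the eve promoter and 4 at promoters of other genes.

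Zelda cover in the dPCIF1 mutant and in wild type was then compared over the 9 genes. Zelda peaks covered 82905 and 77501 bp of the windows in the mutant lists and 68328 and 61004 bp in the wild-type lists. Both mutant lists were above both wild-type lists. The log2 difference, mutant minus wild type, was 0.31 ± 0.10 (SE), with an exact permutation p of 0.33, two-sided, which is the smallest that 2 against 2 lists allow. It was 0.20 ± 0.06 in the promoter part and 0.41 ± 0.10 in the distal part (SE, exact permutation p = 0.33 for each). The whole lists differed to nearly the same degree, with a log2 difference of 0.28 ± 0.14. After division by the bases that each list covered in the genome, an alternative chosen after seeing the data, the difference was 0.03 in the windows, -0.08 in the promoter part and 0.13 in the distal part. In the distal part both mutant lists were still above both wild-type lists.

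By gene, both mutant lists had more Zelda-covered bases than both wild-type lists at 7 of 9 genes, h, run, ftz, odd, slp1, slp2 and opa, against 25.8% of the protein-coding genes with any Zelda peak. prd was lower in both mutant lists, against 13.9% of genes, and the lists overlapped at eve. opa had 16682 and 14004 bp in the mutant and 9592 and 9495 bp in wild type, a log2 difference of 0.68 ± 0.13 (SE). run had 3311 and 3120 bp in the mutant and 2113 and 1852 bp in wild type, a log2 difference of 0.70 ± 0.10 (SE). At prd the values were 6844 and 6384 bp in the mutant and 8293 and 7200 bp in wild type, a log2 difference of -0.23 ± 0.11 (SE). eve had 9832 and 8420 bp in the mutant and 8804 and 7824 bp in wild type.

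Relative to the bases covered by the whole list, fewer genes stood apart. Both mutant lists were higher at 3 of 9 genes, run, slp2 and opa, against 15.7% of genes, and lower at 3, eve, prd and slp1, against 22.4%. At opa Zelda covered 45.4 and 40.4 of each 10000 covered bases in the mutant and 29.8 and 35.3 in wild type. At prd it covered 18.6 and 18.4 in the mutant and 25.7 and 26.8 in wild type. prd was therefore lower, and run, slp2 and opa higher, on both scales.

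The distal parts gave a similar picture, with 8 of 9 genes higher in both mutant lists, against 27.0% of genes, and prd lower, against 8.86%. run had the largest log2 difference, with 1486 and 1386 distal bp in the mutant and 566 and 375 bp in wild type. These values include distal bases of its gained region described above, where Zelda covered 961 and 864 bp in the mutant lists and 0 bp in both wild-type lists. In the promoter parts 6 of 9 genes were higher, against 24.0%, and 0 were lower, against 13.2%. At the eve promoter Zelda covered 1273 and 1256 bp in the mutant and 830 and 797 bp in wild type. The number of peaks did not follow the bases: there were 59 and 56 in the mutant and 59 and 62 in wild type. At odd the mutant lists had 6 and 6 peaks over 12753 and 12763 bp, and the wild-type lists 8 and 9 peaks over 10510 and 10139 bp.

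**Figure D4:**
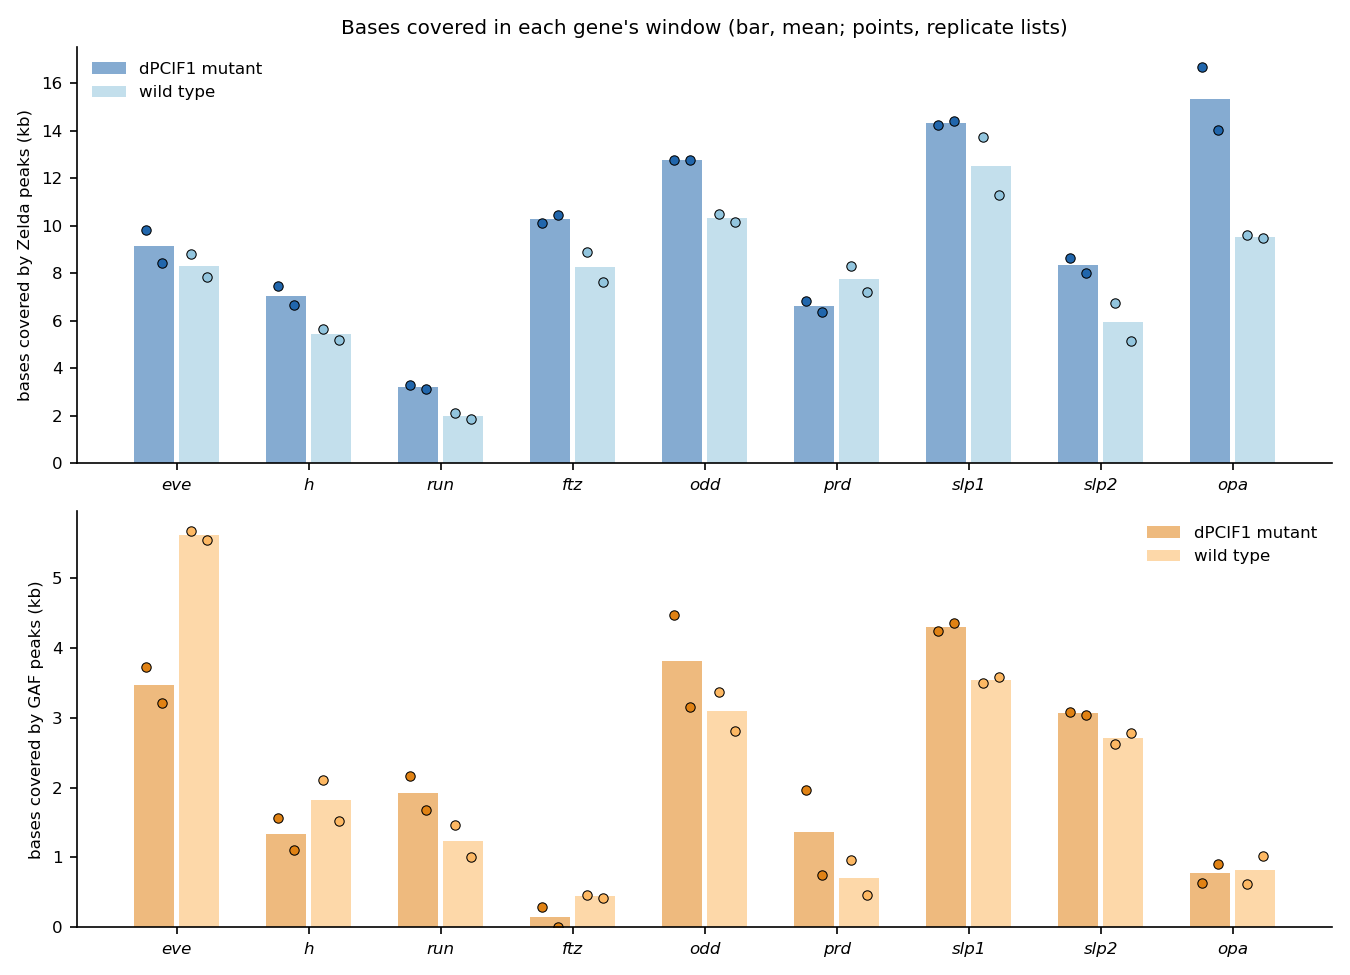
Bases covered in each gene's window (kb) by Zelda, top, and GAF, bottom, in dPCIF1 mutant and wild-type embryos, with bars for the mean and points for the 2 replicate lists. Both mutant points lie above both wild-type points for Zelda at 7 of 9 genes and for GAF at 3 of 9.

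Most Zelda regions at these genes were present in both genotypes. When the 4 lists were merged, 39 of 58 regions in the windows (67.2%) had a peak in every list, against 29.0% over the genome. Those gained numbered 2 of 58, against 7.45% over the genome, and 0 were lost, against 3.67%. The other 17 regions were called in some lists only. Leaving out any 1 list raised the gained count to 4 or 5, and the lost count reached 4 without wild-type replicate 2. With a list left out fewer lists have to meet the rule for gained or lost, so higher counts follow at least in part from the looser rule. Of the 69753 bp of the windows covered in both mutant lists, 9410 bp were in neither wild-type list. Of the 52705 bp covered in both wild-type lists, 1048 bp were in neither mutant list. Over the genome these were 568903 of 2774551 bp for the mutant and 158216 of 1916548 bp for wild type, in each case a larger share than in the windows.

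GAF showed no shared direction over the 9 genes. Its peaks covered 19069 and 15171 bp of the windows in the mutant and 18145 and 16375 bp in wild type, a log2 difference of -0.02 ± 0.18 (SE, exact permutation p = 1.00). The difference was 0.00 ± 0.09 in the promoter part and -0.10 ± 0.27 in the distal part (SE, exact permutation p = 1.00 for each). Over the whole lists it was -0.06 ± 0.11. Its sign in the windows turned without mutant replicate 2, to 0.15, and without wild-type replicate 1, to 0.05.

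Single genes moved in both directions. Both mutant lists had more GAF-covered bases than both wild-type lists at 3 of 9 genes, run, slp1 and slp2, against 19.1% of genes with any GAF peak. Both had fewer at 2, eve and ftz, against 30.6%. eve had 3724 and 3215 bp in the mutant and 5669 and 5543 bp in wild type, a log2 difference of -0.70 ± 0.11 (SE). In its distal part there were 1308 and 569 bp in the mutant and 2803 and 2839 bp in wild type. run had 2168 and 1683 bp in the mutant and 1466 and 1007 bp in wild type. slp1 had 4237 and 4349 bp in the mutant and 3489 and 3579 bp in wild type, part of it shared with slp2.

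Split by position, GAF was higher at 1 promoter, run, against 15.8% of genes, and lower at 2, eve and ftz, against 28.7%. In the distal part it was higher at 2 genes, slp1 and slp2, against 20.8%, and lower at eve alone, against 20.7%. Relative to the bases covered by each whole list, 4 genes were higher, run, odd, slp1 and slp2, against 24.5%, and 3 lower, eve, h and ftz, against 27.2%. Of 27 merged GAF regions in the windows, 15 (55.6%) had a peak in every list, against 46.1% over the genome. The 1 gained region compares with 4.64% over the genome and the 1 lost with 7.71%. Gained regions numbered 2 without mutant replicate 1, 4 without mutant replicate 2 and 3 without wild-type replicate 1, and lost ones 3 without mutant replicate 1 and 4 without wild-type replicate 1. As for Zelda, the rule is looser with a list left out. The counts of genes higher or lower, and of regions gained or lost, stood within 2 of what these shares give.

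Replicate lists set the scale for these differences. The bases shared by 2 Zelda lists, divided by the bases in either, came to 0.769 between the mutant replicates and 0.688 between the wild-type replicates in the windows. Between genotypes the 4 pairs gave 0.633 to 0.677. The GAF values were 0.679 and 0.718 between replicates in the mutant and in wild type, and 0.554 to 0.637 between genotypes. For both proteins the replicates shared more in the windows than any pair from different genotypes. The order was the same over the genome. There Zelda gave 0.635 between mutant and 0.480 between wild-type replicates, against 0.461 to 0.474 between genotypes. GAF gave 0.739 and 0.745, against 0.674 to 0.676.

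Motif sites were counted to describe the sequence under the peaks. GAGAG occurred in the 250 bp before 8 of 12 annotated start sites of the 9 genes (66.7%), against 29.1% of 19276 start sites of protein-coding genes. CAGGTA occurred before 6 of 12 (50.0%), against 5.55%. The opa promoter held neither, and those of eve and slp2 held GAGAG without CAGGTA. Around region midpoints, CAGGTA lay within 100 bp in 15.2% of the Zelda regions of these windows in the mutant and in 18.0% in wild type, against 13.1% of all Zelda regions in the mutant and 15.1% in wild type. GAGAG lay there in 12 of 20 GAF regions in the mutant and in 11 of 19 in wild type, against 52.7% of all GAF regions in the mutant and 51.8% in wild type.

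Sites were denser under the peaks than outside them. In the windows, CAGGTA occurred 0.674 times per kb in the bases covered by both Zelda mutant lists and 0.835 times per kb in those of both wild-type lists. In bases that neither list covered it occurred 0.244 times per kb in the mutant and 0.241 in wild type. Over the genome the densities under the peaks were 0.715 per kb in the mutant and 0.874 in wild type. At slp1, 8 and 7 of 8 CAGGTA sites lay under Zelda peaks in the mutant and 7 and 8 in wild type. opa had the most CAGGTA sites, 18, with 7 and 6 under peaks in the mutant and 6 and 6 in wild type. For GAGAG, densities in the windows were 5.06 per kb under GAF in the mutant and 5.41 in wild type, and 1.24 and 1.21 outside. At ftz none of 25 GAGAG sites lay under a GAF peak in the mutant, against 4 in each wild-type list.

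Co-occupancy with Zelda was compared between promoter and distal regions. By the 20% rule, 7 of its 11 promoter regions in wild type (63.6%) overlapped RNA Pol II-Ser5P, 9 (81.8%) GAF, 6 (54.5%) dPCIF1 and 5 (45.5%) HIRA. Where an overlap of 1 bp was enough, these counts were 9, 10, 7 and 7. Of 27 distal Zelda regions in wild type, 11 (40.7%) overlapped RNA Pol II-Ser5P, 6 (22.2%) GAF, 3 (11.1%) dPCIF1 and 2 (7.41%) HIRA. For wild-type Zelda regions of every class over the genome, the shares were 51.4% for RNA Pol II-Ser5P, 39.2% for GAF, 34.9% for dPCIF1 and 46.8% for HIRA. All 4 distal dPCIF1 regions and all 3 distal HIRA regions lay apart from each other, with an overlap of 0 in both directions. Over the genome, all classes together, 57.9% of dPCIF1 regions overlapped HIRA and 58.6% of HIRA regions overlapped dPCIF1 by the 20% rule. The share among distal regions of the genome was not measured, so whether this separation is particular to these genes was not tested. Of 8 distal GAF regions in wild type, 7 (87.5%) overlapped Zelda, 2 dPCIF1 and 0 HIRA. Over the genome, all classes together, 20.5% of GAF regions overlapped Zelda, 25.4% dPCIF1 and 23.1% HIRA, and no test of these differences was made.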

How the data were processed

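Peak lists were available for 14 of 40 samples, and the other 26 were not analysed here. The authors trimmed reads with Trimmomatic (version 0.39), aligned them to dm6 with Bowtie2 (version 2.2.5), kept unique reads of mapping quality 30 or more with SAMtools (version 1.18), and called peaks in each replicate with MACS2 (version 2.2.7.1) at a q-value of 0.01. The deposited lists hold 3 columns, chromosome, start and end, with no score, ratio or signal, so depth and height were not used here.

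Gene models were those of FlyBase on dm6 (Ensembl release 115), and sequences came from RefSeq Release 6, the same assembly. Peaks touching a gene or its 10 kb flanks were taken. Covered bases were summed per list, and groups of 2 lists were compared by a two-sided exact permutation test, in which 2 against 2 cannot go below 0.33. Both replicates had to share at least 20% of both peak lengths for a region. A merged region was gained or lost where both lists of one genotype and neither of the other had a peak. Motifs were searched on both strands. Genes named are the 9 members, with their widest promoter and distal regions and those gained or lost. The members and lists were chosen with earlier results of these data known. Scripts were tested on simulated data and ran in Python 3.11.15 with numpy 2.4.6 and matplotlib 3.10.9. Alternatives were another flank, promoter size, overlap or peak width, peak number, leaving out each list, and a replicate block.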

Additional observations from a re-analysis of the deposited data

How the results depend on the processing

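Of 236 alternatives over 24 results, 11 turned the sign of a log2 difference and 19 moved a count by over 1.5 times. The other 206 kept the sign, or stayed within 1.5 times for a count, except that the GAF promoter difference of 0.00 had no sign and ranged from -0.08 to 0.16. Keeping the sign did not mean keeping the size. For GAF, the log2 difference over the windows was 0.09 with a flank of 20 kb, 0.03 by number of peaks and 0.04 after division by the genome-wide covered bases, chosen after seeing the data, and -0.18 to 0.15 without single lists. In the distal part it was 0.02 with the 20 kb flank, 0.05 with a promoter of 2 kb and -0.35 to 0.14 without single lists. For Zelda it was -0.07 by number of peaks, 0.05 in the promoter part and 0.08 in the distal part, and after division by the genome-wide covered bases it was 0.03, -0.08 in the promoter part and 0.13 in the distal part. With promoters of 500 bp and 2 kb the Zelda promoter difference was 0.08 and 0.33. Gained GAF regions were 3 with the 20 kb flank and 1 to 4 without single lists, where the rule for gained or lost is looser, and lost ones 1 to 4. Among peaks of at least 500 bp, 1 GAF region was gained and 1 lost, but not the ones described above. The GAF peaks of the gained slp1 region, 300 and 461 bp, fell below that width. So did those of the lost ftz region, 459 and 427 bp. Gained Zelda regions were 1 among peaks of at least 500 bp and 4 to 5 without single lists, and lost ones were 1 with the 20 kb flank and 0 to 4 without single lists. Regions in both replicates were 7 for dPCIF1 and 7 for HIRA among peaks of at least 500 bp. With the 20 kb flank they were 33 for GAF in the mutant and 30 in wild type. The cause of these shifts was not tested. With the replicate number as a block, the log2 differences were -0.02, 0.00 and -0.10 for GAF and 0.31, 0.20 and 0.41 for Zelda over the windows, promoter and distal parts, and an exact sign-flip test over 2 pairs cannot go below 0.500. Deviations of same-numbered lists correlated at 0.03 for GAF and -0.03 for Zelda across genes, so they share only a number. A stricter peak threshold was not run, as the lists give no q-values. Depth is unknown, and a deeper library can pass the calling threshold at more places, which cannot be told apart from more binding.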
